A study of Homo sapiens with 4 samples.

Results

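The 6 stress and wound keratin genes KRT6A, KRT6B, KRT6C, KRT16, KRT17 and KRT75 were followed in RNA-seq of untreated HaCaT, a spontaneously immortalized line of human epidermal keratinocytes. They were chosen by gene symbol and are 6 of 19233 protein-coding genes, and of 44591 genes in all, in each deposited table. Total RNA was sequenced from 4 biological replicates grown in medium with 12% fetal bovine serum according to the labels, with no treatment and no genetic change named. The study's methods give another share of serum than the labels. All 4 libraries belong to the same group, so no comparison between conditions could be made. The cells are a single line, and a low level in bulk RNA can mean fewer cells with the transcript or less transcript per cell, which cannot be told apart.

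Keratins form filaments from pairs of a type I and a type II chain. KRT6A, KRT6B, KRT6C and KRT75 encode type II chains, and KRT16 and KRT17 encode type I chains that pair with them. In skin these genes are known from hair follicles, nails, palms and soles. KRT6A, KRT16 and KRT17 among them are switched on in the epidermis between the hair follicles after wounding, in psoriasis and in culture. In that epidermis KRT5 and KRT14 form the filaments of basal cells and KRT1 and KRT10 those of the layers above.

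KRT6A and KRT17 were among the most abundant transcripts of these cells. KRT16 differed widely between replicates, with a TPM of 140 in replicate 1 and 7.81 to 19.2 in the others. KRT6B and KRT6C were at the limit of detection, and no read was counted on KRT75. TPM (counts per length, scaled to sum to 1000000 over protein-coding genes in each replicate) was 2336 ± 1104 for KRT17, 1558 ± 538 for KRT6A, 45.4 ± 63.0 for KRT16, 1.01 ± 0.711 for KRT6B and 0.338 ± 0.409 for KRT6C (SD, n = 4). A mean TPM above 1 was reached by 4 of the 6 genes, against 63.3% of all protein-coding genes. KRT6A, KRT16 and KRT17 had more than 3 counts in every replicate, and the share of all genes that did was not computed.

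Replicate 1 stood apart from the others. It held 73082279 counts, against 17056035, 19745170 and 19083836 in replicates 2 to 4, and only 76.1% of them fell on protein-coding genes, against 95.3%, 95.7% and 96.4%. All 10 keratinocyte markers examined were detected, while the summed TPM of 7 fibroblast markers was 5.20 to 9.70, that of 4 melanocyte markers 1.36 to 3.52, that of 4 immune markers 3.40 to 8.92 and that of 3 endothelial markers 0.859 to 2.36. TYR and PECAM1, defining genes of melanocytes and endothelium, had no counts in any replicate. Values that moved without it are given beside the result.

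The KRT6 genes are near-identical copies, and their order therefore depends on reads that fall where they differ. The coding sequence of KRT6A differs from that of KRT6B at 42 of 1692 bases (97.5% identical) and from that of KRT6C at 35 (97.9%), and KRT6B differs from KRT6C at 25 (98.5%). The following stretches of exon 2 are those of 30 coding bases in which KRT6A differs most from its copies. They are given 5′ to 3′ on the transcribed minus strand, from the GENCODE 29 transcripts on GRCh38, and capitals mark the bases that are not the same in all 3 genes.
KRT6A, chr12:52491555-52491584: acggggCcgCctggactcAgagctCagaGG
KRT6B, chr12:52450439-52450468: acggggTcgTctggactcGgagctGagaAA
KRT6C, chr12:52472099-52472128: acggggCcgCctggactcGgagctGagaAA

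Even in this stretch KRT6B differs from KRT6A at 6 bases and KRT6C differs from KRT6A at 4. Over the whole transcript, 37.2% of the 50-base windows of KRT6A also occur without mismatch in KRT6B or KRT6C, and 18.2% of the 100-base windows do. For KRT6B the shares of windows found in the other KRT6 genes are 46.8% and 24.6%, and for KRT6C they are 53.4% and 31.6%. Reads from such windows cannot be assigned to 1 gene, and the read length and the treatment of such reads are not given in the sources used here.

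KRT16 has a second kind of likeness, to KRT14 and to pseudogenes on chromosome 17. In the next set capitals mark the bases that are not the same in all 4 genes, in the 30 coding bases of exon 2 where KRT16 differs most from the others. KRT16P6 is shown because it is named as a pseudogene of KRT16 and took many reads.
KRT16, chr17:41611690-41611719: CAtTGcGgccacCAtTgaGaatgcGCaGCC
KRT17, chr17:41623001-41623030: CCtCAcAgccacCGtGgaCaatgcCAaCAT
KRT14, chr17:41585026-41585055: TCtCAcAgccacAGtGgaCaatgcCAaTGT
KRT16P6, chr17:16820712-16820741: CCtCAcGgccacAGtGgaCaatgcCAaTGT

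KRT16P6 differs from KRT14 at 2 of these 30 bases and from KRT16 at 12. Over the aligned coding sequence it is 95.6% identical to KRT14 and 86.5% identical to KRT16. The other KRT16 pseudogenes compared, KRT16P1, KRT16P2 and KRT16P3, are 94.6%, 94.8% and 94.7% identical to KRT16. KRT16 itself is 88.7% identical to KRT14 and 80.1% identical to KRT17.

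KRT6A is the most abundant of the KRT6 genes and encodes a type II chain that pairs with KRT16 and KRT17. It lies on chromosome 12 from 52880958 to 52887181, minus strand, in the coordinates of the deposited tables (hg19 according to the submitters' processing notes). Its counts were 123610, 32028, 24553 and 19577 and its TPM 2076, 1966, 1115 and 1072 in replicates 1 to 4. Replicates 1 and 2 were close to each other and above replicates 3 and 4, which were also close. KRT6A ranked 72nd, 65th, 134th and 121st of all protein-coding genes, and its mean lay at percentile 99.2 of the 12165 genes with a mean TPM above 1. The highest replicate was 1.94 times the lowest, or 0.95 apart in log2(TPM + 1), at percentile 37.9 of the detected genes, whose median was 1.16 (quartiles 0.75 and 1.75). Without replicate 1 its mean was 1385 ± 504 (SD, n = 3), and its span of 0.87 lay at percentile 69.5, above that of most genes in the other 3 replicates.

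KRT17 encodes a type I chain of hair follicles and nails that epidermal cells take up on injury. It lies on chromosome 17 from 39775692 to 39780882 and had counts of 83792, 40510, 28815 and 14615. Its TPM was 2191, 3871, 2037 and 1246, so replicate 2 stood highest and replicate 4 lowest. KRT17 ranked 69th, 16th, 78th and 98th and lay at percentile 99.6 of the detected genes by its mean. Its span over replicates was 1.63 on the log2(TPM + 1) scale, at percentile 71.4 of the detected genes. Both ends of this span rest on a single library, since it was 0.81 without replicate 2 and 0.93 without replicate 4. Without replicate 1 the mean was 2385 ± 1347 (SD, n = 3), and the span, still 1.63, lay at percentile 95.4 of the detected genes.

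KRT16 encodes the type I partner of KRT6 chains in wounded and psoriatic epidermis. It lies beside KRT17 on chromosome 17, from 39766030 to 39769079, and had counts of 5829, 219, 230 and 100. Its TPM was 140 in replicate 1 and 19.2, 14.9 and 7.81 in replicates 2, 3 and 4. Replicate 1 was thus 7.28 times the next highest value, whereas log2(TPM + 1) of the other 3 spanned 1.19, which lay at percentile 85.7 of the detected genes over these 3 replicates. The span over all 4 replicates was 4.0, at percentile 97.5 of the detected genes, of which 4.27% had a span of 10-fold or more. A value in replicate 1 at least 4 times that in every other replicate was found in 2.48% of the detected genes, and one past Dixon's 95% limit for an outlying value, as for KRT16, in 6.38%. Without replicate 1, the mean of KRT16 was 14 ± 5.74 (SD, n = 3), and its rank in replicates 2 to 4 was 6908th, 6717th and 9395th, against 1066th in replicate 1.

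KRT6B encodes a further KRT6 chain, known from nails and hair follicles. It lies on chromosome 12 from 52840435 to 52845910 and had counts of 96, 22, 14 and 3, with a TPM of 1.73, 1.45, 0.683 and 0.176. Only 3 replicates were above the limit of 3 counts, and without replicate 1 the mean was 0.770, below the limit of 1 used for detection. KRT6C, the copy best known from palms and soles (chromosome 12, 52862300 to 52867569), had counts of 46, 8, 0 and 0 and a TPM of 0.827 and 0.526 in replicates 1 and 2. No read was counted on KRT6C in replicates 3 and 4, and its mean without replicate 1 was 0.175.

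KRT75, a type II keratin of the companion layer of hair follicles, lies next to the KRT6 genes from 52817854 to 52828110 and had no count in any replicate. A count of 0 allows up to 3 counts, which would be a TPM of 0.0581 in replicate 1 and of 0.212, 0.157 and 0.189 in replicates 2 to 4. KRT75 was the only one of the 6 genes to overlap another gene of the tables, an antisense gene that also had no count. KRT75 shares 1 of its 50-base windows and none of its 100-base windows with the KRT6 genes.

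**Figure D1:**
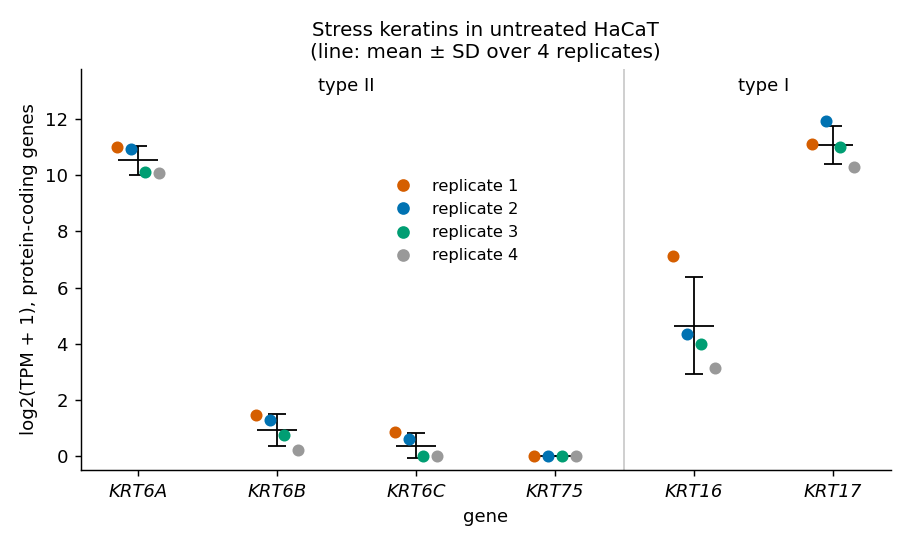
Level of each stress keratin in the 4 replicates of untreated HaCaT, as log2(TPM + 1) over protein-coding genes (points: replicates; horizontal line and bars: mean ± SD). KRT17 and KRT6A lie near the top in every replicate, KRT16 in replicate 1 (TPM of 140) lies above its other replicates (7.81 to 19.2), and KRT6B, KRT6C and KRT75 lie near 0.

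KRT6A took nearly all reads of the KRT6 genes. Its share of the reads counted on KRT6A, KRT6B and KRT6C was 99.9% in replicates 1, 2 and 3 and 99.98% in replicate 4. KRT6B took 0.0776% (95% Clopper-Pearson interval 0.0628 to 0.0947), 0.0686% (0.0430 to 0.104), 0.0570% (0.0312 to 0.0956) and 0.0153% (0.00316 to 0.0448). KRT6C took 0.0372% (0.0272 to 0.0496) and 0.0250% (0.0108 to 0.0492) in replicates 1 and 2, and the upper bound for its 0 reads was 0.0150% and 0.0188% in replicates 3 and 4. No molecular identifiers were used, so these intervals reflect counting error alone. Whether the few reads on KRT6B and KRT6C came from these genes or from KRT6A was not tested.

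The order by mean TPM was KRT17, KRT6A, KRT16, KRT6B, KRT6C and KRT75. Neighbours in this order were compared within each replicate on the log2(TPM + 1) scale, 5 pairs in all. With the deposited gene lengths, KRT17 was above KRT6A in 4 of 4 replicates, but by an amount that differed from 0.08 to 0.98 (mean 0.53 ± 0.45, SD, and 0.69 ± 0.41 without replicate 1). KRT6A exceeded KRT16 by 5.89 ± 1.38 and KRT16 exceeded KRT6B by 3.72 ± 1.32, each in 4 of 4 replicates. KRT6B exceeded KRT6C by 0.56 ± 0.23 in 4 of 4, with both genes near the limit of detection. The size of that difference was set by the pseudocount, since 0.1 in place of 1 gave 1.68 ± 0.88. Each of these 4 differences had an exact two-sided sign-flip permutation p of 0.125, the smallest that 4 replicates allow, and a Benjamini-Hochberg adjusted p of 0.156. KRT6C and KRT75 differed in 2 of 4 replicates, by 0.37 ± 0.44, or by 1.46 with a pseudocount of 0.1 (exact permutation p = 0.5, adjusted 0.5). Without replicate 1, the difference of KRT6A and KRT16 was 6.56 ± 0.40 and that of KRT16 and KRT6B was 3.06 ± 0.17 (SD, n = 3).

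Ratios of 2 genes within a library do not depend on how the library is scaled. KRT17 over KRT6A, in counts per length, was 1.06, 1.97, 1.83 and 1.16 in replicates 1 to 4, with 95% Clopper-Pearson intervals of 1.05 to 1.06, 1.94 to 2.0, 1.80 to 1.86 and 1.14 to 1.19. The genes were thus nearer to equal in replicates 1 and 4 than in replicates 2 and 3. Per count without the length of the gene, KRT17 exceeded KRT6A in only 2 of 4 replicates (mean log2 difference -0.10). With reference transcript lengths it did so in 3 of 4 (mean 0.38 ± 0.45, SD, exact two-sided sign-flip permutation p = 0.375). The order of these genes thus rests on the deposited gene lengths of 1574 and 2450 bp.

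KRT6A over KRT16 was 14.9 in replicate 1 (interval 14.5 to 15.3), while replicates 2, 3 and 4 gave 103, 74.9 and 137, with intervals that reached down to 65.7 and up to 169. KRT17 over KRT16 was 15.7 in replicate 1 (interval 15.3 to 16.1), while the others gave 202, 137 and 160, with intervals that reached down to 120 and up to 232. Both ratios were lowest in replicate 1, by more than the counting error. Taken with KRT16 as the divisor, neither ratio lay past Dixon's 95% limit for 4 values. The outcome of this check can depend on which gene is the divisor. The inverse ratios were not set against the limit, and the difference between replicates had no other test. KRT16, KRT17 and KRT14 transcripts are alike in base composition, with 61.0%, 61.9% and 60.5% GC, while KRT6A has 55.8%.

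Against the basal keratin of the same type, KRT17 was 0.321, 0.507, 0.311 and 0.195 times KRT14, and KRT6A was 0.385, 0.739, 0.581 and 0.357 times KRT5. The highest value of both ratios was in replicate 2 and the lowest in replicate 4. KRT16 over KRT14 was 0.0205 in replicate 1 and 0.00251, 0.00228 and 0.00123 in replicates 2, 3 and 4. Replicate 1 was thus 8.16 times the next highest for this ratio.

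**Figure D2:**
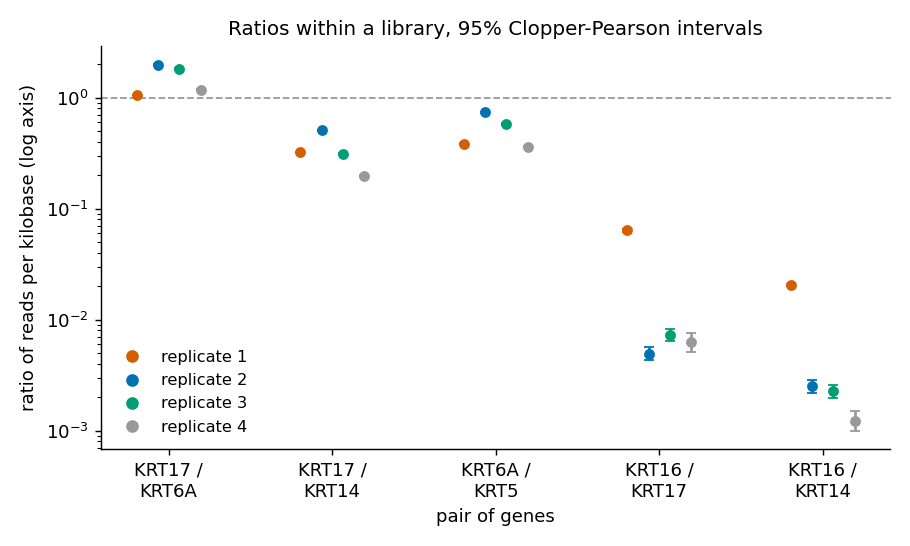
Ratios of counts per kilobase between 2 keratin genes within each library, on a log axis (points: replicates; bars: 95% Clopper-Pearson intervals, counting error only; dashed line: equal levels). KRT17 over KRT6A lies between 1.06 and 1.97 in all replicates, while KRT16 over KRT14 is 0.0205 in replicate 1 and 0.00123 to 0.00251 in the others.

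By summed TPM, the type II stress keratins stood below the type I ones. The summed TPM of KRT6A, KRT6B, KRT6C and KRT75 was 2079, 1968, 1116 and 1073, and that of KRT16 and KRT17 was 2330, 3890, 2052 and 1254. The type II sum was the lower one in 4 of 4 replicates, at 0.892, 0.506, 0.544 and 0.855 times the type I sum (log2 difference -0.56 ± 0.43, SD; exact two-sided sign-flip permutation p = 0.125), and the log2 difference was -0.70 ± 0.41 without replicate 1. The split of reads among the KRT6 copies bears little on these sums, since the gene lengths of 2450, 2282 and 2289 bp are near each other. Whether reads matching more than 1 gene were left out of the counts is not known. Windows of 50 bases found in such copies make up 37.2% for KRT6A (in KRT6B or KRT6C) and 13.1% for KRT17 (in its pseudogenes). What a loss of such reads would do to the sums was not tested. The sums do depend on gene length, since CPM (counts scaled to 1000000 without length) gave a log2 difference of 0.07 (exact permutation p = 0.75).

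Of the 4 detected stress keratins, KRT6A, KRT6B and KRT16 were highest in replicate 1, against 40.2% of all detected genes, and KRT17 was highest in replicate 2, as were 23.3% of them. All 4 were lowest in replicate 4, where 12.9% of the detected genes were lowest. KRT6B did not reach a mean TPM of 1 without replicate 1 (0.770), and its value in replicate 4 rests on 3 counts. The count of members lowest in replicate 4 fell to 2 of 4 when TPM was taken over all genes of the tables. Protein-coding genes held 31.0% of that total in replicate 1 and 87.4% to 93.0% in the others. On that scale KRT6A was 643, 1743, 975 and 997 and KRT17 was 678, 3431, 1781 and 1159, so that replicate 1 became the lowest for both. KRT16 remained highest in replicate 1, at 43.2, against 17, 13 and 7.26. The order of replicates for KRT6A and KRT17 therefore depends on whether genes other than protein-coding ones are counted in the total.

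The stress keratins made up 8.5%, 21.1%, 14.4% and 9.12% of the TPM of all 55 keratin genes in replicates 1 to 4 (13.3% ± 5.82, SD, n = 4). Their summed TPM was 4409, 5859, 3167 and 2327, nearly all of it from KRT6A and KRT17. KRT17 was the 8th and KRT6A the 9th most abundant keratin by mean TPM, after KRT14, KRT19, KRT15, KRT13, KRT5, KRT8 and KRT7, and KRT16 was the 14th. KRT15 and KRT13 stood above them through replicate 1, and without it KRT17 was the 6th, KRT6A the 7th and KRT16 the 15th. KRT6B was the last of the 22 keratins with a mean TPM above 1.

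Compared with the basal keratins KRT5, KRT14 and KRT15, the stress keratins were lower in 4 of 4 replicates, by a mean log2 difference of -1.76 ± 0.74 (SD). Compared with the simple epithelial keratins KRT7, KRT8, KRT18, KRT19 and KRT20, which line internal epithelia, they were lower in 4 of 4 as well (-1.39 ± 0.61). They exceeded the suprabasal keratins KRT1, KRT2, KRT9, KRT10 and KRT77 in 4 of 4 replicates, by 5.40 ± 1.42. Each of these 3 differences of log2(summed TPM + 1) had an exact two-sided sign-flip permutation p of 0.125, the smallest possible, and an adjusted p of 0.125. Without replicate 1 they were -1.51 ± 0.66, -1.48 ± 0.71 and 6.01 ± 0.90 (SD, n = 3).

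**Figure D3:**
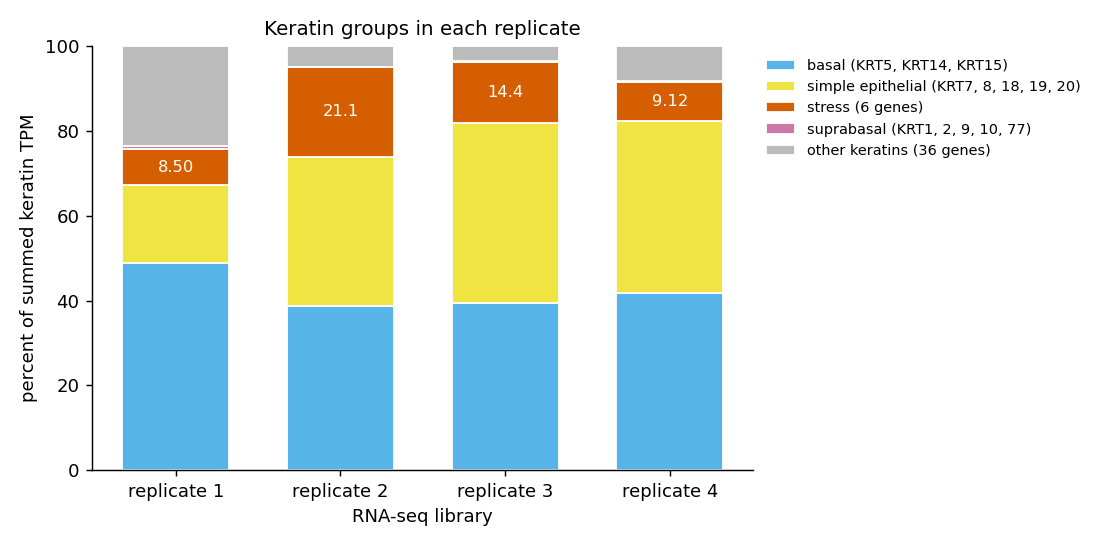
Share of each keratin group in the summed TPM of 55 keratin genes, for each replicate (stacked bars, in percent, with the share of the 6 stress keratins printed). The stress keratins hold 8.5% to 21.1%, below the basal and the simple epithelial keratins in each replicate, and the group of other keratins is wider in replicate 1 (23.7%) than in the others (3.5% to 8.35%).

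KRT16 was not the only keratin with a high level in replicate 1. KRT1 and KRT10, the pair of the layers above the basal one, had a TPM of 124 and 229 in replicate 1, against at most 0.545 and 52.4 in the others. KRT13 and KRT4, the pair of the upper layers of internal stratified epithelia, stood at 9870 and 2359 in replicate 1 and at most 1900 and 123 elsewhere, and KRT15, a type I keratin of basal cells, at 13064 and at most 1308. Whether the high KRT16 of replicate 1 and the levels of these keratins share a source was not tested.

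The genes named as pseudogenes of KRT16 also took reads. The 5 of them (KRT16P1, KRT16P2, KRT16P3, KRT16P5 and KRT16P6) held 2915, 426, 115 and 125 counts, or 33.3% (95% Clopper-Pearson interval 32.3 to 34.3), 66.0% (62.2 to 69.7), 33.3% (28.4 to 38.6) and 55.6% (48.8 to 62.2) of the reads on KRT16 and these genes. The largest part in replicates 1 and 2 fell on KRT16P6, with 1912 and 301 counts, and in replicates 3 and 4 on KRT16P1, with 77 and 68. Since KRT16P6 is closer to KRT14 in sequence, the shares were also computed without it, after its identity had been seen, and were 14.7%, 36.3%, 27.4% and 46.8%. Adding all 5 to KRT16 lowered the excess of replicate 1 over the next highest replicate from 7.28 to 3.71 times, and adding 4 without KRT16P6 lowered it to 5.43 times. How many of these reads came from KRT16 or KRT14 was not tested.

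The 4 genes named as pseudogenes of KRT17 held 28, 26, 11 and 6 counts, or 0.0334% to 0.0641% of the reads on KRT17 and its copies. Of the 50-base windows, 13.1% of those of KRT17 also occur in these copies, and 13.2% of those of KRT16 in the KRT16 pseudogenes. Of the 100-base windows, 0.353% of those of KRT17 and 3.37% of those of KRT16 do. KRT14 held 271274, 83121, 96270 and 77710 counts. It shares 11.3% of the 50-base and 3.82% of the 100-base windows of KRT16. Whether reads counted on KRT16 came from KRT14 was not tested.

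**Figure D4:**
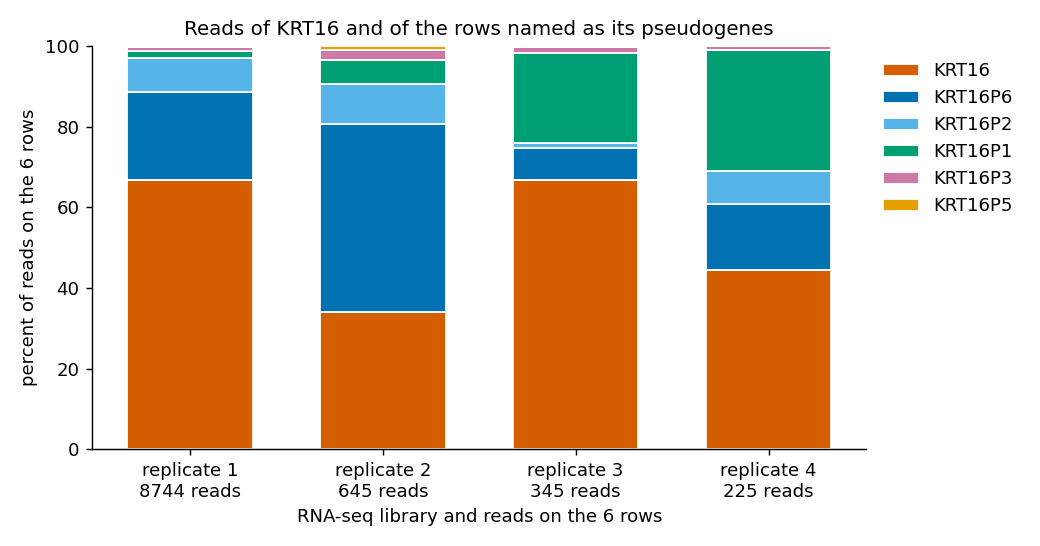
Percent of the reads on KRT16 and 5 genes named as its pseudogenes that fell on each of them, by replicate (stacked bars; the number of reads stands under each bar). KRT16 holds the larger part in replicates 1 and 3, while the pseudogenes hold 66.0% in replicate 2 and 55.6% in replicate 4.

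KRT6A, KRT6B and KRT6C lie together between KRT75, 12325 bp below with no reads, and KRT5, 21178 bp above with a TPM of 5396, 2660, 1920 and 3000. KRT6A was thus next to the more abundant KRT5, while its copies between KRT6A and KRT75 were near 0. KRT16 and KRT17 lie between KRT14, 22883 bp below with 6824, 7642, 6547 and 6375, and EIF1, a translation factor and the nearest protein-coding gene above at 64245 bp, with 229, 805, 1028 and 926. By TPM over protein-coding genes, KRT14 differed little between replicates, whereas KRT16 beside it differed 17.9-fold, and 2.45-fold without replicate 1. With TPM over all genes KRT16 was 43.2, 17, 13 and 7.26 in replicates 1 to 4. The level of KRT14 was not recomputed on that scale.

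The genes whose log2(TPM + 1) moved most like that of each member over the 4 replicates, after centring, were found among all detected genes with a root-mean-square difference. For KRT6A they were ZNF418 (0.03), NOV (0.04) and ALKBH8 (0.04), for KRT17 they included TMEM190 (0.12) and STAT2 (0.12), and for KRT16 they included HIST1H2BK (0.18) and BMP7 (0.27). BMP7, for instance, had a TPM of 89.9, 13, 8.78 and 7.76, and STAT2 one of 58.4, 83.3, 50.2 and 31.6. ZNF418 and TMEM190 had a mean TPM of only 1.02 and 1.08, near the limit of 1, where the pseudocount shapes the pattern. With 4 replicates many genes have a like pattern, and these are given as a description.

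Most genes known to act on stress keratins were present. Among the epidermal growth factors, cytokines and receptors that induce these genes, 22 of 27 (81.5%) had a mean TPM above 1, against 63.3% of all protein-coding genes. EGFR, the receptor through which growth factors raise KRT6A, KRT16 and KRT17, had a TPM of 168, 231, 93.2 and 229. Its ligand TGFA stood at 13.4, 42.7, 29.7 and 34.3. OSM, IL22, IL17A and IFNG, cytokines of immune cells that induce stress keratins in inflamed skin, had no counts in any replicate, although their receptors OSMR, IL22RA1, IL17RA and IFNGR1 were detected.

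A list of 24 genes held transcription factors linked to stress keratins and KEAP1, which is not itself a transcription factor. Of the 24, 23 (95.8%) were detected, against 63.3% of all protein-coding genes. NFE2L2, the regulator of the oxidative stress response, had a TPM of 52.8, 76.3, 44.6 and 71.6. FOSL1, a subunit of AP-1, had 3.26 in replicate 1 and 572, 347 and 170 in replicates 2 to 4. POU2F3, a factor of differentiating epidermis, was at 11.9 in replicate 1 and at most 0.879 in the others. GLI2 was the one factor below the limit, with at most 0.289.

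Among proteins that bind keratins or link their filaments, 11 of 12 (91.7%) were detected, against the same 63.3%. SFN, a 14-3-3 protein that binds KRT17, stood at 957, 2466, 2076 and 1557. RHBDF2, which binds KRT16, stood at 4.18 in replicate 1 and at 51.2, 26.7 and 45.5 in the others. AIRE, a transcriptional regulator reported to act with KRT17, had a TPM of 0.0179 in replicate 1 and no counts elsewhere.

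Of 21 genes that accompany stress keratins in wounds and psoriasis, 19 (90.5%) had a mean TPM above 1, also against 63.3%, and DEFB4A and IL36G did not. SPRR1B, a precursor of the cornified envelope, had 71.6, 26.7, 3.59 and 4.77, highest in replicate 1 like KRT16. FN1, a matrix protein of wounds, had 6.85, 169, 140 and 401 and was lowest in replicate 1. In all 4 lists together, replicate 1 was the highest for some genes and the lowest for others, as it was the highest for 40.2% and the lowest for 37.5% of all detected genes. Among detected genes, it was the highest for 5 and the lowest for 12 of the signals and receptors, and for 7 and 11 of the factors, 3 and 4 of the keratin-binding proteins and 5 and 8 of the wound genes.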

How the data were processed

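RNA-seq was performed by the authors on total RNA of 4 biological replicates of untreated HaCaT. The members and gene lists were chosen with earlier results of these data known. The deposited tables hold raw counts per gene, without normalization, and gene lengths for 44591 genes. RPKM in replicates 1 and 2, and TPM in replicates 3 and 4, as computed by the authors, were used only as an alternative. The submitters' processing notes name hg19, HISAT2, HISAT, TopHat2 and Bowtie2. The counting program, annotation, RNA selection, strand and read length are not given in the sources used here, and without strand, reads of antisense genes cannot be told apart.

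TPM was computed for each replicate over 19233 protein-coding genes from the deposited counts and lengths, since genes of other classes took a larger part of replicate 1 than of the others. A fold on log2(TPM + 1) understates differences of low genes. The 12165 genes whose mean TPM exceeded 1 were taken as detected, and a count of 0 was taken to allow 3 counts. With a single condition no differential expression was tested. Differences within a replicate were tested with exact two-sided sign-flip permutation tests with Benjamini-Hochberg adjustment, which with 4 replicates cannot reach 0.05. All 6 members, the listed genes, the 3 genes most like each member with at least 10 counts in every replicate, and the nearest protein-coding genes were named, apart from a few that are not reported here. Sequences, identities and shared windows came from GENCODE release 29 (GRCh38). Scripts were tested on simulated data. Depth was 73082279 counts in replicate 1 and 17056035 to 19745170 in the others.

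Alternatives were TPM over all genes, the deposited values, CPM, reference transcript lengths (found for 97.1% of genes), a pseudocount of 0.1, other filters, upper quartile and TMM scaling, pseudogene counts added, and each replicate left out. Software was R 4.3.3 with edgeR 4.0.16 (TMM factors only) and Python 3.11.15 with Biopython 1.88, SciPy 1.17.1, pandas 2.3.3, NumPy 2.4.6 and matplotlib 3.10.9.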

Additional observations from a re-analysis of the deposited data

Results flagged for a closer look

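In 5 of 24 sets of 4 replicates examined, 1 value lay farther from the others than Dixon's 95% limit allows. Normally distributed values would give about 1.2 such sets, but TPM and ratios need not be distributed so. In all 5 it was the value of replicate 1. KRT16 had a TPM of 140 there and 7.81 to 19.2 in the other replicates, and such a high value in replicate 1 was found in 6.38% of the detected genes. KRT16 over KRT14, a ratio that does not depend on the scaling of the library, was 0.0205, against 0.00123 to 0.00251. The inverse of this ratio was not set against the limit, and the outcome can depend on which gene is the divisor. The basal keratins had a summed TPM of 25284 in replicate 1 and 8705 to 10761 in the others, of which KRT15 held 13064 in replicate 1. The suprabasal keratins stood at 365, against 43.9 to 60.6, and the remaining 36 keratins at 12279, against 772 to 2129. The 5 sets share libraries and, in part, genes, and are not independent.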

How the results depend on the processing

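Of 210 values recomputed under an alternative, 31 lay more than 1.5 times from the value given above or turned in sign. Of 85 means of tested differences, 83 kept their direction, which does not require that every replicate kept it. The other 2 came from CPM without gene length: KRT17 minus KRT6A became -0.10 and type II minus type I became 0.073 on the log2 scale. Some of these values could not turn. KRT75 had no counts, so KRT6C minus KRT75 cannot fall below 0. Type II minus type I is unchanged by scaling of the library or by leaving out KRT75. The 210 values also include levels of KRT75, which stayed at 0. The values as deposited, a mixture of RPKM and TPM, gave a KRT6A level of 857, a KRT17 level of 1294, a KRT16 level of 18.5 and a KRT6B span of 0.46, and a pseudocount of 0.1 gave a KRT6B span of 2.73. TPM over all genes gave a KRT17 span of 2.34, a KRT16 span of 2.42 and a KRT16 level of 20.1. With each replicate left out in turn, the span of KRT16 was 1.19 to 4.0 (1.19 without replicate 1) and that of KRT17 0.81 to 1.63, that of KRT6B was 0.70 without replicate 4, and the KRT16 level was 14 without replicate 1. With a mean TPM above 10 required, KRT6B was not among the genes and had no span. TPM over all genes shifted the median gene by -1.56 in replicate 1 and -0.18 to -0.10 in the others on the log2 scale, and upper quartile and TMM scaling by -0.11 to 0.22. Chosen after seeing the data were the keratin ranks and the fold range of KRT16 without replicate 1, and the alternatives for KRT16 in replicate 1 over the next highest, which was 2.54 with TPM over all genes, 3.71 with all pseudogene counts added, and 5.43 to 8.16 otherwise, and for the count of detected members lowest in replicate 4, which was 2 with TPM over all genes and 4 with upper quartile and TMM scaling. Depth limits KRT6B, KRT6C and KRT75. Samples could not be paired between conditions because all belong to the same group, and genes were compared within each replicate.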
